A study of Mus musculus with 4 samples.

Results

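Cluster 3 is a group of cells in which simple epithelial keratins were listed beside brachyury, a T-box factor of primitive streak and notochord cells. Its members are the genes that the authors' deposited table lists for it, taken as all entries with the cluster number 3. There were 99 of them, among the 1197 genes that the table lists for any of its 15 clusters. Of the 99 genes, 63 were listed higher in cluster 3 than in all other cells, which is 5.26% of the genes in the table, and 36 were listed lower, which is 3.01%. Clusters and listed genes come from the expression of the same cells, so the listed genes define cluster 3 and their values are a description, with no test.

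The cells came from mouse embryonic stem cells taken through a directed cardiac differentiation and profiled by droplet single-cell RNA sequencing. The labels give 4 groups of 1 library each, which are Brm knockout cells at the mesoderm stage (BRG1 3XFLAG; BRM KO), wild-type cells at the mesoderm stage (BRG1 3XFLAG), Brm knockout cells at the cardiac stage (BRG1 3XFLAG; BRM KO) and wild-type cells at the cardiac stage (BRG1 3XFLAG). All 4 carry the tagged BRG1, an ATPase of the BAF chromatin remodelling complex, and BRM is the alternative ATPase that the knockout lacks. The labels do not say whether each line is a single clone, and they call the cardiac stage cells both cardiac myocytes and cardiac progenitors. The table's columns name clusters and no library, and its deposited name refers to the Brm knockout alone. Values were therefore compared between clusters, not between genotypes or stages, and no value below has a replicate.

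Simple epithelia line surfaces with a single layer of cells, held together by E-cadherin and claudin junctions and stiffened by the keratins 8, 18 and 19. In the gastrulating embryo the epiblast is such an epithelium, and cells that pass through the primitive streak switch on brachyury, lose E-cadherin and gain the mesenchymal filament vimentin. Cells that leave the front of the streak form the definitive endoderm and the notochord, for which Foxa2 is required, and these remain or again become epithelial. Nodal, Wnt and FGF signals act on the streak, and secreted antagonists such as Cer1 and Dkk1 limit them at its front.

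Each entry of the authors' deposited table gives the natural log fold change of a cluster against all other cells, printed here as a fold, and the share of cells in which the gene was detected inside and outside the cluster. A gene had to differ by 0.5 or more in natural log units and be found in at least 25.1% of cells inside or outside to appear, as the smallest values in the table show. A gene that is not listed for a cluster may thus still differ by less. It may also differ by any amount if fewer than 25.1% of cells have it both inside and outside. Cluster 3 held 10.4% of all cells, as solved from the shares of cells inside and outside the clusters, and the other clusters compared here held 15.5% (cluster 0), 12.6% (cluster 2), 8.61% (cluster 4), 7.64% (cluster 6), 6.95% (cluster 7), 6.04% (cluster 8) and 0.291% (cluster 14). Numbers of cells and read depth are unknown. A constant added before the log would make the folds of weakly expressed genes too small, and no source used here says whether one was added. Cldn7 bears on this, since it was found in 0.567% of the cells of the 12 clusters that do not list it, yet its level there came out at 0.813 of the mean over all cells, as computed from the authors' deposited table. T and Capsl were found in 3.0% and 1.4% of the cells of the 14 other clusters, at levels of 0.564 and 0.873. A constant would also draw ratios between clusters toward equal levels for weakly detected genes. Shares of cells are therefore given beside each fold.

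**Figure D1:**
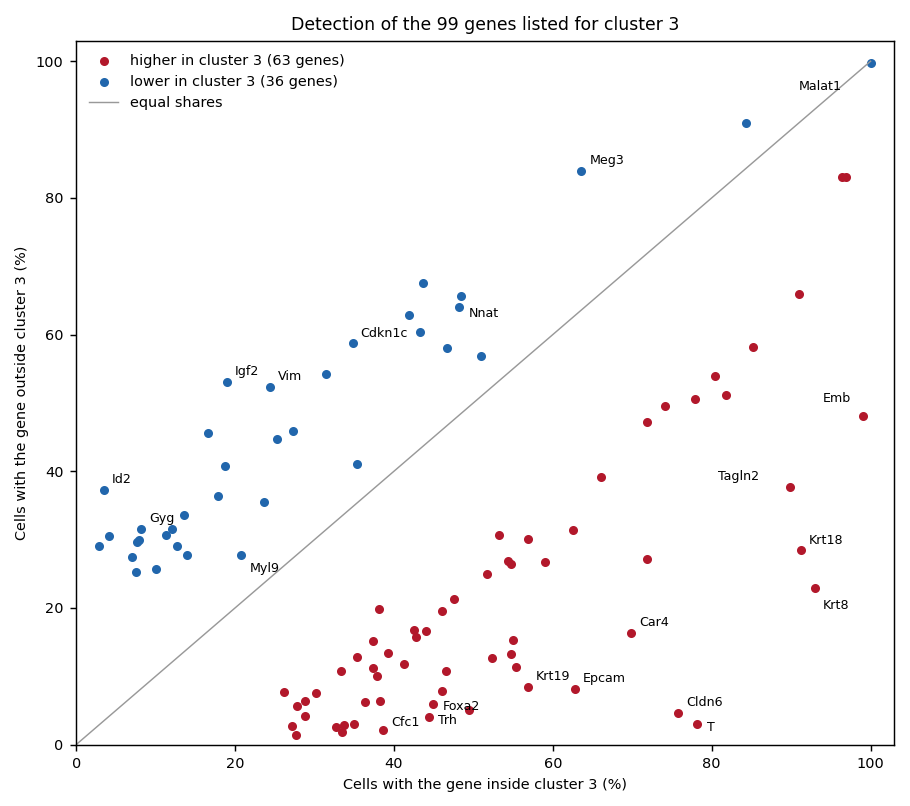
Share of cells with each of the 99 genes inside cluster 3 (x axis, percent) and outside it (y axis, percent), with genes listed higher in red, genes listed lower in blue and equal shares on the line. T and Cldn6 lie at the lower right, found in 78.2% and 75.8% of cells inside against 3.0% and 4.6% outside, while Emb reached 99% inside and 48.1% outside.

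All 6 genes that stand for cluster 3 in its label were listed higher. Krt8 was 8.87-fold, T 8.46-fold, Trh 6.37-fold, Cldn6 6.08-fold, Krt19 6.04-fold and Foxa2 2.85-fold higher by the authors' deposited table. They come from the same contrast that defines cluster 3, so they are no evidence for the label. Of 33 markers of other cell types the cells could hold, 10 were in the table and 1, Pou5f1, was listed for cluster 3. The defining genes of the node and notochord Noto, Chrd, Nog and Foxj1, of the definitive endoderm Hhex, Cxcr4, Foxa1 and Foxa3, and of surface ectoderm Tfap2a, Tfap2c and Trp63 were listed for none of the 15 clusters. Sox17, the endoderm regulator, was listed higher in cluster 14 only, which leaves at most 12.5% of cluster 3 cells that could detect it, as computed from the authors' deposited table. The same limit was 35.7% for Shh, the midline signal listed higher in cluster 6, and 23.5% for the cardiac troponin Tnnt2, as computed from the authors' deposited table. The limit for Shh lies above the 28.8% and 27.8% of cells in which the listed genes Lhx1 and Sp5 were found, so it does not show absence. For Dnmt3b and the cardiac actin Actc1 the limit was 94.4% and 70.3%, and for Dab2, Myl7 and Sox2 it was 91.5%, 65.2% and 47.9%, too high to be of use. From a longer list for definitive endoderm and gut, 3 of the 11 genes in the table were listed higher, Cer1, Foxa2 and Lhx1, and from a list for node, notochord and midline 2 of 5, T and Foxa2. Clusters 4 and 14 listed 3 and 4 members of the endoderm list higher, and clusters 5 and 6 each listed 2 members of the node list higher.

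The epithelial list, of keratins and junction genes, had the most members, 8, among the 63 higher genes. Of 14 genes on that list that were in the table, 8 were listed higher, or 57.1%, against 5.26% of all genes in the table, and none was listed lower. Their median was 4.67-fold, against 2.15-fold over all 63 higher genes, by the authors' deposited table. The 8 genes were found in a median of 51.6 percentage points more cells inside than outside, against 27.9 over the 63. Another 28 genes of the list were listed for no cluster, among them Krt7, Cldn4 and Grhl2. The desmosome genes Dsp, Jup and Pkp2 and the epithelial genes F11r and Spint1 were listed for other clusters only.

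Krt8, the type II keratin of simple epithelia, was found in 93.0% of cells inside against 22.9% outside by the authors' deposited table. Cluster 14 was the only other cluster that listed it higher, with 76.1% of its cells, while 8 clusters listed it lower, with 3.7% to 25.2% of cells, by the authors' deposited table. The 5 clusters that do not list it had 43.6% of their cells with it when pooled, as computed from the authors' deposited table, and their single shares are unknown. Krt18, the type I keratin that pairs with Krt8, was 5.66-fold higher and was found in 91.2% of cells inside against 28.4% outside by the authors' deposited table. Clusters 14 and 9 also listed Krt18 higher, with 85.3% and 51.2% of their cells, by the authors' deposited table. More than 90% of the cells of cluster 3 thus had each partner of the keratin pair.

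Krt19, a second type I keratin, was found in fewer cells, 56.9% inside against 8.4% outside by the authors' deposited table. Of all cells with Krt19, 43.9% lay in cluster 3, against 31.9% of those with Krt8 and 27.1% of those with Krt18, as computed from the authors' deposited table. Cldn6, a tight junction claudin of embryonic epithelia, was found in 75.8% of cells inside against 4.6% outside, and Cldn7 in 32.7% inside against 2.5% outside, by the authors' deposited table. Outside clusters 3, 8 and 14 both claudins were close to absent, in 1.21% and 0.567% of cells, as computed from the authors' deposited table. Cdh1, which encodes E-cadherin, was found in 35.0% of cells inside against 3.0% outside by the authors' deposited table, and in 0.608% of the cells of the 13 clusters that do not list it. Epcam, an epithelial adhesion gene, was 3.67-fold higher by the authors' deposited table, with 62.8% of cells inside against 8.1% outside. Spint2, an inhibitor of epithelial serine proteases, was 2.53-fold higher, with 54.7% of cells inside against 13.3% outside, by the authors' deposited table. Among the 8 genes, Krt8 and Krt18 were thus also detected in many cells of other clusters, Cldn6, Cldn7 and Cdh1 in few cells outside clusters 3, 8 and 14, and Krt19, Epcam and Spint2 in between.

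**Figure D2:**
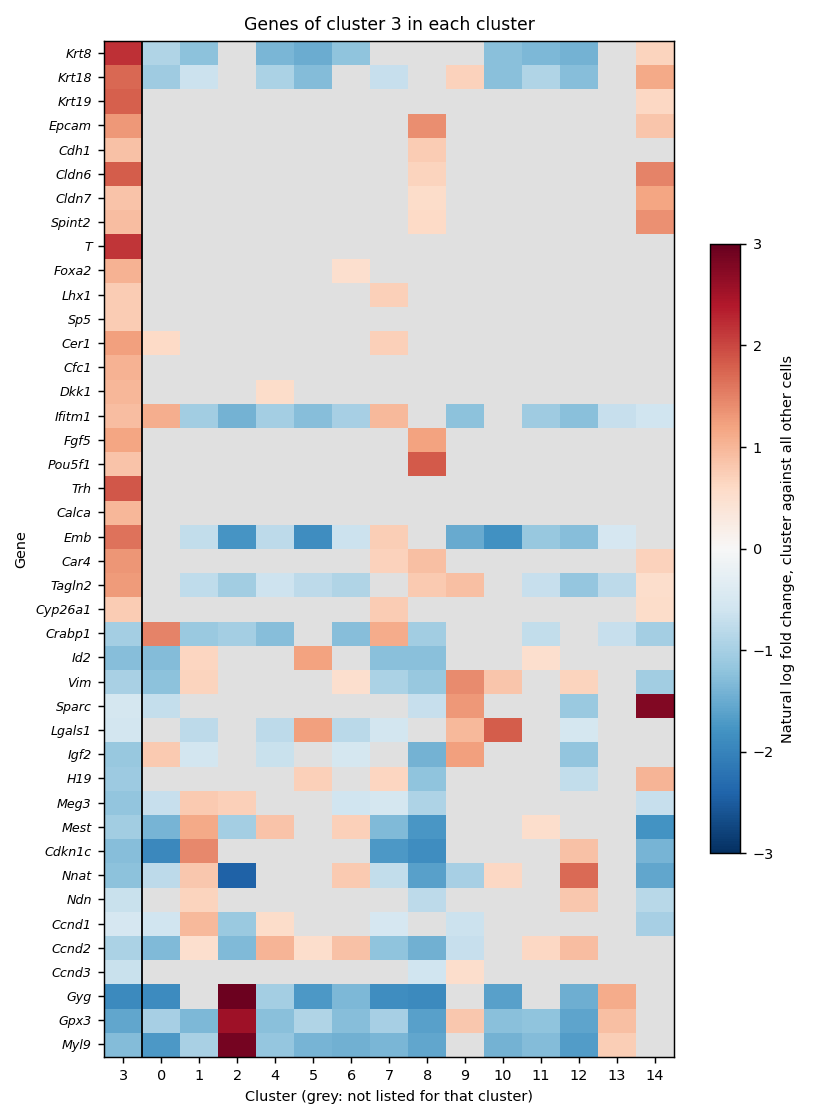
Natural log fold change of genes listed for cluster 3 (rows) in cluster 3 and in the other 14 clusters (columns), each cluster against all other cells, with grey where a gene is not listed. Epithelial genes recur in clusters 8 and 14, Cer1 and Lhx1 in clusters 0 and 7 or 7 alone, and T, Sp5, Cfc1, Trh and Calca have no entry outside cluster 3.

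Several regulators of the streak and its front were listed higher. Of 11 genes in the table from a list for primitive streak and nascent mesoderm, 5 were listed higher and none lower. The 5 make 45.5% of the 11, against 5.26% of all genes in the table. Another 23 of the 34 list genes were in the table for no cluster, including Eomes, Mixl1, Mesp1 and Tbx6. Cluster 7 listed 7 members of the same list higher and cluster 0 listed 4, with none lower in either. T was found in 78.2% of cells inside against 3.0% outside by the authors' deposited table, and 75.1% of all cells with T lay in cluster 3. No other cluster listed T in either direction. Foxa2, the forkhead factor of endoderm, node and floor plate, was found in 44.9% of cells inside against 5.9% outside by the authors' deposited table. Cluster 6 also listed Foxa2 higher, with 27.8% of its cells, and there it stood beside Shh, by the authors' deposited table. Shh was not listed for cluster 3, where up to 35.7% of cells could still have it. Lhx1, a LIM homeodomain factor of the anterior streak and axial mesoderm, was 2.16-fold higher, with 28.8% of cells inside against 4.2% outside, by the authors' deposited table. Cluster 7 listed Lhx1 higher as well, with 27.5% of its cells, close to the share in cluster 3, by the authors' deposited table. Ifitm1, a small transmembrane gene induced by interferon and found in nascent mesoderm, was 2.54-fold higher in cluster 3, with 71.9% of cells, and was also listed higher in clusters 0 and 7, with 75.7% and 81.0% of their cells, by the authors' deposited table.

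Sp5 and T are known direct targets of Wnt signalling, which acts through TCF and LEF factors, and Dkk1, a secreted Wnt antagonist, is another. These were the 3 of 9 Wnt pathway genes in the table that were listed higher in cluster 3, and Ccnd1 was listed lower. Those 3 make 33.3% of the 9, against 5.26% of all genes in the table listed higher. Sp5, a zinc finger factor, was 2.15-fold higher, with 27.8% of cells inside against 5.6% outside, and Dkk1 was 2.68-fold higher, with 33.3% inside against 10.8% outside, by the authors' deposited table. Dkk1 was also listed higher in cluster 4, while Sp5 had no other entry. The promoters of the 3 genes, that of Dkk1 chosen after its values were seen, are shown because these Wnt targets were listed higher together, from 250 bases before to 50 bases after the start, 5′ to 3′ on the gene's strand. Capitals mark matches to CTTTGAA or CTTTGAT and to CTTTGTA or CTTTGTT on either strand, which are forms of the TCF and LEF motif and cannot overlap at the same place on 1 strand. The sequences are RefSeq's on GRCm38.p6, at chr17:8434173-8434472 (plus strand) for T, chr2:70474673-70474972 (plus strand) for Sp5 and chr19:30549447-30549746 (minus strand) for Dkk1.
T: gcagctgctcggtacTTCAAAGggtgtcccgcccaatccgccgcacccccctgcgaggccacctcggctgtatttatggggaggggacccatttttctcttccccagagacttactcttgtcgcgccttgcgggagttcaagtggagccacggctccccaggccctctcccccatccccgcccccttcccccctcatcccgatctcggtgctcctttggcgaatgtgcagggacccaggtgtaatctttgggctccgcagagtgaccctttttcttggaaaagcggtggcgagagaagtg
Sp5: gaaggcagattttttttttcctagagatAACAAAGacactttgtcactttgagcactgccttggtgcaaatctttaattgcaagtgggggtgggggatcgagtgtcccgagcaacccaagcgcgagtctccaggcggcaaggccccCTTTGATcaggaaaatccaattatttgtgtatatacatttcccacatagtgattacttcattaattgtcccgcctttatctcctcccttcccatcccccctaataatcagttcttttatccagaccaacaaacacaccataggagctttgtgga
Dkk1: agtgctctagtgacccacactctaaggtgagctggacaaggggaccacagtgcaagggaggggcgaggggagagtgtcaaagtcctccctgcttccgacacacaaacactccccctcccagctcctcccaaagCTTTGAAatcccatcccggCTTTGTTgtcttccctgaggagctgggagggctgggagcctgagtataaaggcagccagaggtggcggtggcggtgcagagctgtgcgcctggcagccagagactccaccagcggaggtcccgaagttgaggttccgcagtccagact
The T window held 1 match, which reads CTTTGAA on the opposite strand, 235 to 229 bases before the start. The Sp5 window held 2, CTTTGTT on the opposite strand 222 to 216 bases before the start and CTTTGAT on the gene's strand 104 to 98 bases before it. In the Dkk1 window 2 matches lay close together on the gene's strand, CTTTGAA 117 to 111 and CTTTGTT 98 to 92 bases before the start. Of all 32851 RefSeq promoters of this length, 16.9% held at least 1 match and 1.94% held 2 or more. Of the 49 higher genes of cluster 3 that matched a promoter, 9 held a match, or 18.4%, against 18.9% of all RefSeq genes with a promoter. A match describes these letters only, and says nothing of binding.

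Genes for secreted signals and their receptors followed. Cer1, a secreted antagonist of Nodal, BMP and Wnt, was 3.43-fold higher in cluster 3, with 55.3% of cells inside against 11.4% outside, by the authors' deposited table. Clusters 7 and 0 also listed Cer1 higher, with 47.9% and 39.1% of their cells, and the 12 other clusters had 1.21% of cells with it, as computed from the authors' deposited table. Cfc1, which encodes the Nodal co-receptor cryptic, was 2.82-fold higher and had no entry in another cluster, with 38.6% of cells inside against 2.2% outside by the authors' deposited table. Cer1 and Cfc1 were the 2 of 11 genes in the table of the Nodal, activin and BMP list that were listed higher. That is 18.2%, against 5.26% of all genes in the table. Id2, a target of BMP signalling, was listed lower, at 3.62-fold, with 3.5% of cells inside against 37.3% outside by the authors' deposited table. Clusters 0, 7 and 8 listed Id2 lower to a like extent, with 4.1%, 2.7% and 4.5% of cells, by the authors' deposited table. Id1 and Id3, on the same list, were not listed for cluster 3, while clusters 0, 7 and 8 listed both lower.

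Fgf5, the FGF ligand of the late epiblast, was 3.24-fold higher, with 49.4% of cells inside against 5.1% outside, by the authors' deposited table, and was shared with cluster 8 only. Cyp26a1, the enzyme that degrades retinoic acid, was 2.16-fold higher, with 37.9% of cells inside against 10.0% outside, by the authors' deposited table. Clusters 7 and 14 also listed Cyp26a1 higher, with 40.5% and 35.8% of their cells. Crabp1, a retinoic acid binding protein, was 2.77-fold lower, with 11.3% of cells inside against 30.6% outside, by the authors' deposited table. The enzyme gene was thus listed higher and the binding protein gene lower. Trh, the thyrotropin-releasing hormone gene, was found in 44.4% of cells inside against 4.0% outside by the authors' deposited table. Calca, which encodes calcitonin and its gene-related peptide, was found in 33.5% of cells inside against 1.8% outside by the authors' deposited table. Neither hormone gene was listed for another cluster, and 56.2% of the cells with Trh and 68.3% of those with Calca lay in cluster 3, as computed from the authors' deposited table.

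**Figure D3:**
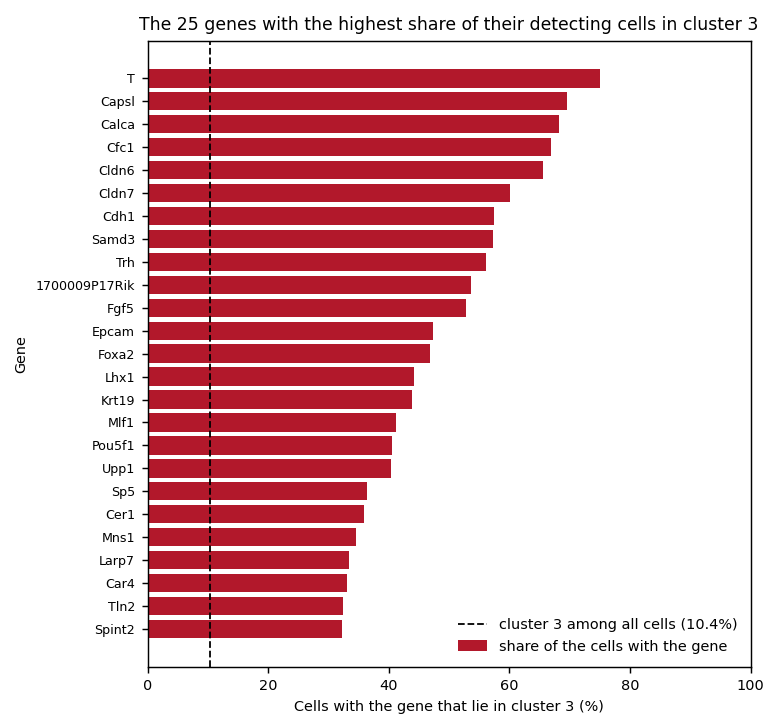
Share of the cells with each gene that lie in cluster 3 (bars, percent) for the 25 listed genes with the highest share, as computed from the solved size of cluster 3. The dashed line is the 10.4% of all cells that cluster 3 holds, and T is highest at 75.1%, followed by Capsl at 69.6% and Calca at 68.3%.

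For 11 of the 63 higher genes, more than 50% of all cells with the gene lay in cluster 3, as computed from the authors' deposited table. In order of that share these were T, Capsl, Calca, Cfc1, Cldn6, Cldn7, Cdh1, Samd3, Trh, 1700009P17Rik and Fgf5, which reached 52.8%. By this measure the genes nearest to T were Capsl and Calca. The median over the 63 genes was 27.8%, and over all higher entries of the 15 clusters it was 12.01%. A small cluster can hold only a small share of the cells with a widely detected gene. Cluster 14, with 0.291% of all cells, gave 314 of the 1305 higher entries. Cldn6, found in 71.6% of the cells of cluster 14, had a share of 1.74% there. The medians therefore also reflect cluster size, and their gap does not show that genes of cluster 3 are unusually confined to it. Of the 63 genes, 20 were listed higher in no other cluster, and 14 of these had no entry of any kind elsewhere. The 14 were T, Trh, Cfc1, Calca, Arl4a, Tln2, 1700009P17Rik, Upp1, Capsl, Samd3, Sp5, B9d1, Hdac1 and Dusp4.

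B9d1 and 1700009P17Rik, of these 14, and the shared gene Mns1 encode parts of cilia, a group chosen after the values were seen. B9d1, of the ciliary transition zone, was 2.08-fold higher with 44.0% of cells inside against 16.6% outside, by the authors' deposited table. The gene listed as 1700009P17Rik, now named Cfap126 and known for ciliary basal bodies, was 2.47-fold higher with 27.1% of cells inside against 2.7% outside, by the authors' deposited table. Mns1, required for motile cilia and sperm tails, was 2.00-fold higher with 28.8% of cells inside against 6.3% outside, by the authors' deposited table, and cluster 8 listed it with 28.7% of its cells. Foxj1, the regulator of motile cilia, was listed for no cluster. Capsl, which encodes a calcium-binding protein, was found in 27.7% of cells inside against 1.4% outside by the authors' deposited table. Among the others, Arl4a, a small GTPase gene, and Tln2, a talin that links integrins to actin, were 2.62-fold and 2.59-fold higher by the authors' deposited table.

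Emb, which encodes embigin, a partner of lactate transporters, was 5.05-fold higher by the authors' deposited table and was found in nearly every cell, 99% inside against 48.1% outside. Cluster 7 listed Emb higher too, with 90.7% of its cells, and 10 clusters listed it lower, by the authors' deposited table. The lactate transporter gene Slc16a1 was 2.05-fold higher, with 37.3% of cells inside against 11.2% outside, by the authors' deposited table. Car4, a membrane carbonic anhydrase, was 3.73-fold higher, with 69.9% of cells inside against 16.3% outside, by the authors' deposited table. Tagln2, an actin-binding transgelin, was 3.61-fold higher, with 89.8% of cells inside against 37.7% outside, by the authors' deposited table. Ezr, which ties actin to the apical membrane, was 2.05-fold higher with 41.2% of cells inside against 11.8% outside, by the authors' deposited table. Cluster 14 also listed Slc16a1, Car4, Tagln2 and Ezr higher, with 41.3%, 39.4%, 73.4% and 44.0% of its cells. Cluster 8 listed Car4, Tagln2 and Ezr higher, with 66.0%, 84.3% and 42.1% of its cells. Car4 was also listed higher in cluster 7, with 54.2%, and Tagln2 in cluster 9, with 72.1%. In 8 clusters Tagln2 was listed lower.

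Mlf1 and the 7SK RNA binding gene Larp7 were 3.17-fold and 2.72-fold higher by the authors' deposited table, and cluster 8 alone shared both. Upp1, the uridine phosphorylase gene, was 2.40-fold higher, with 36.4% of cells inside against 6.2% outside, by the authors' deposited table. Hdac1, a histone deacetylase, and Dusp4, a phosphatase of MAP kinases, were 1.77-fold and 1.72-fold higher by the authors' deposited table. The higher genes not named elsewhere, among them the annexin partner S100a10, lay between 1.69-fold and 2.08-fold, by the authors' deposited table.

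Hspa5, Hsp90b1 and Pdia6, chaperones of the endoplasmic reticulum, were 1.96-fold, 2.03-fold and 1.75-fold higher and were found in 74.1% to 81.8% of cells inside, by the authors' deposited table. They were listed higher in no other cluster. Hspa5 was the 1 of 6 stress genes in the table that was listed, and neither Fos nor Cdkn1a was. No mitochondrially encoded gene, of 10 in the table, and no ribosomal protein gene, of 13, was listed for cluster 3. All 7 S phase genes and all 14 G2 and M phase genes in the table were also listed for other clusters only. Stmn2, a microtubule gene best known in neurons, was 1.81-fold higher by the authors' deposited table, with 30.2% of cells inside against 7.5% outside, while the neuronal genes Tubb3 and Elavl3 were not listed. At the threshold of the table, Cyr61, Psip1 and Cited2 were the last genes inside it on the higher side, at 1.68-fold, 1.67-fold and 1.65-fold, by the authors' deposited table. On the lower side these were Ccnd1, Sparc and Mmd, at 1.66-fold, 1.68-fold and 1.68-fold, by the authors' deposited table. Genes just outside the threshold are not listed for cluster 3.

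Each of the 36 lower genes was also listed lower in at least 1 other cluster, and 32 of them (88.9%) were in cluster 8. The list of imprinted genes had the most members, 8, among the 36 lower genes. Of 13 genes on the imprinted list in the table, 8 were listed lower, or 61.5%, against 3.01% of all genes in the table, and none was listed higher. Their median was 3.05-fold, against 2.05-fold over the 36 genes, which include them, by the authors' deposited table. The list holds Gpc3, an X-linked growth inhibitor that is not itself an imprinted gene, and without it the count is 7 of 12. Cdkn1c, a cell cycle inhibitor, was 3.56-fold lower, with 34.8% of cells inside against 58.7% outside, by the authors' deposited table. Igf2, the embryonic growth factor, was 3.11-fold lower, with 19% of cells inside against 53.1% outside, and its neighbour H19, a non-coding RNA, was 2.99-fold lower, with 16.6% inside against 45.6% outside, by the authors' deposited table. Nnat, Meg3 and Mest were 3.46-fold, 3.24-fold and 2.86-fold lower, and Ndn was 1.97-fold lower, by the authors' deposited table. Clusters 8 and 14 also listed 8 members of the list lower each, and cluster 1 listed 8 higher.

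Mesenchymal genes were lower for 3 of 18 list members in the table, or 16.7%, against 3.01% of all genes in the table. Clusters 8, 0 and 14 listed 4, 3 and 3 members of the list lower. Vim, the mesenchymal filament vimentin, was 2.66-fold lower, with 24.4% of cells inside against 52.3% outside, by the authors' deposited table. Clusters 0, 7, 8 and 14 also listed Vim lower, with 20.5%, 26.5%, 19.6% and 23.9% of their cells, and 5 clusters listed it higher. Sparc, a matrix glycoprotein, was 1.68-fold lower and Lgals1, a galectin, 1.74-fold lower, by the authors' deposited table. The matrix proteoglycan gene Vcan was found in 4.1% of cells inside against 30.5% outside by the authors' deposited table. Among lower genes on no list, Mfap2, a microfibril gene, and Igfbp4, which binds insulin-like growth factors, were 2.30-fold and 2.23-fold lower by the authors' deposited table, and Serpinh1, a collagen chaperone, was 1.99-fold lower. Cluster 8 also listed Vcan, Mfap2, Igfbp4, Serpinh1 and Sparc lower, with 4.4%, 6.6%, 6.9%, 41.1% and 42.6% of its cells. Lgals1 had no entry for cluster 8. The fibroblast collagens Col1a1, Col1a2 and Col3a1 were not listed. All 3 genes of the D cyclins, chosen after their values were seen, were lower. Ccnd2 was 2.60-fold lower, with 25.3% of cells inside against 44.7% outside, Ccnd3 was 1.93-fold lower with 18.7% inside against 40.8% outside, and Ccnd1 was 1.66-fold lower, by the authors' deposited table. Of the other clusters, 5 listed Ccnd2 lower and 6 higher. Among the 5, clusters 0, 7 and 8 had 13.4%, 16.2% and 10.3% of cells with it, fewer than cluster 3. Ccnd1 was listed lower in 5 other clusters, among them 0, 7 and 14, and higher in 2. Cluster 8 listed Ccnd3 lower and cluster 9 higher.

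The cells that cluster 3 was set against include cluster 2, which listed 26 of 26 contractile genes of heart muscle in the table as higher. Of the 36 lower genes, 13 were listed higher in cluster 2. With cluster 2 taken out of the other cells, 15 of the 22 lower genes listed for both clusters stayed past 0.5 on the natural log scale and 7 did not, as computed from the authors' deposited table. Of these 22 genes, 9 were listed lower in cluster 2, so taking it out could only widen their distance and they had to stay. All 7 that did not stay were among the 13 listed higher in cluster 2. Gyg, the glycogenin gene, was 6.81-fold lower against all other cells and 2.01-fold lower without cluster 2, as computed from the authors' deposited table. Gpx3, a secreted glutathione peroxidase, was 4.76-fold lower against all other cells and 1.87-fold lower without cluster 2, as computed from the authors' deposited table. Myl9, a smooth muscle myosin light chain, was 3.63-fold lower against all other cells and 1.10-fold lower without cluster 2, and it was then found in 20.7% of cells in cluster 3 against 16.4% outside. The other 6 that did not stay were Cfl2, Slc25a4, Ckb, Malat1, Mmd and Csrp2. Nnat, Mest, Crabp1 and Ccnd2 were among the 9 genes listed lower in cluster 2. Their distances grew without it, to 3.97-fold, 3.15-fold, 3.06-fold and 2.91-fold lower. On the higher side 12 genes were listed for both, and Psip1, Tpm3, Prdx1 and Hsp90aa1 dropped to between 1.53-fold and 1.64-fold.

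Cluster 8, which listed Pou5f1 and Dnmt3b higher, was compared with cluster 3 over the 56 genes listed for both. Cluster 3 listed 99 genes and cluster 8 listed 117, and genes listed for only 1 of them could not be compared. Krt8, T and Trh of cluster 3 and Dnmt3b and Utf1 of cluster 8 were thus left out. The comparisons with other clusters below have the same limit. Both clusters are set against largely the same other cells, so only levels of single genes are given, as ratios between the 2 clusters. Of the 56 genes listed for both, 5 stood higher in cluster 3, past a natural log difference of 0.5, which is 8.93%, and 1 stood lower, which is 1.79%, as computed from the authors' deposited table. Cited2, a transcriptional coactivator, was 2.76-fold higher in cluster 3 than in cluster 8, with 53.2% of cells in cluster 3 against 17.5% in cluster 8, as computed from the authors' deposited table. Cldn6 was 2.18-fold higher, with 75.8% of cells in cluster 3 against 48.1% in cluster 8, as computed from the authors' deposited table. The other 3 genes above were lower in both clusters and less so in cluster 3, namely Mest, Gpc3 and Cdkn1c. Pou5f1, the pluripotency factor Oct4, was the 1 gene below, at 2.31-fold lower in cluster 3, with 46.1% of cells in cluster 3 against 84.1% in cluster 8, as computed from the authors' deposited table. Against all other cells Pou5f1 was still 2.35-fold higher in cluster 3 by the authors' deposited table, and it was found in 2.29% of the cells of the 13 clusters that do not list it. Epcam, Cdh1, Cldn7 and Fgf5 lay within 0.5 of each other in the 2 clusters. Of 11 pluripotency genes in the table, cluster 3 listed 2 higher, Pou5f1 and Fgf5, and cluster 8 listed 6. For cluster 3 that is 18.2%, against 5.26% of all genes in the table.

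**Figure D4:**
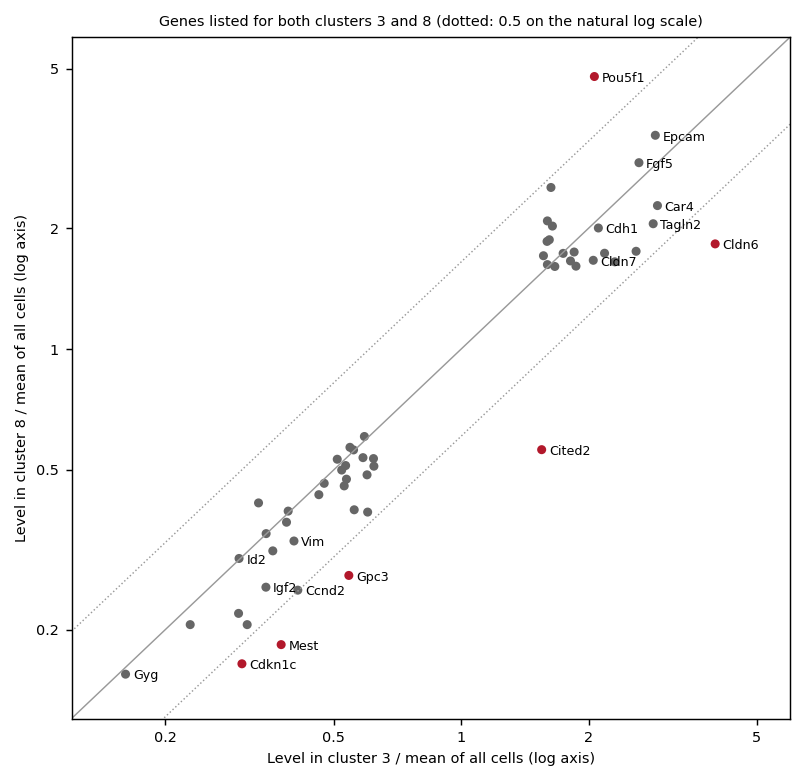
Level of the 56 genes listed for both clusters, as a ratio to the mean of all cells on the fold scale of the table, in cluster 3 (x axis, log scale) and in cluster 8 (y axis, log scale), with dotted lines at 0.5 on the natural log scale from equal levels. The 6 red genes lie past the dotted lines, Pou5f1 higher in cluster 8 and Cldn6, Cited2, Mest, Gpc3 and Cdkn1c higher in cluster 3.

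Cluster 14, the smallest cluster, listed 11 members of the epithelial list and 1 of the streak list higher. These 11 include all of the 8 from cluster 3 but Cdh1. Of 39 genes listed for both, 8 stood higher in cluster 3 (20.5%) and 5 lower (12.8%), in a comparison added after the values were seen, as computed from the authors' deposited table. Krt8 and Krt19 were 2.53-fold and 2.14-fold higher in cluster 3 than in cluster 14, as computed from the authors' deposited table. Spint2 was 1.79-fold lower in cluster 3, and the matrix gene Sparc was 24.9-fold lower, with 46.7% of cells in cluster 3 against 99.1% in cluster 14, as computed from the authors' deposited table. Ttr, a carrier protein of visceral endoderm that cluster 14 listed higher, was not listed for cluster 3 and could be found in at most 7.70% of its cells, as computed from the authors' deposited table.

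Clusters 7 and 0 also listed Cer1 and Ifitm1 higher, and differed from cluster 3 in keratins and in Crabp1. Of the 31 genes listed for both clusters 3 and 7, 2 stood higher in cluster 3 (6.45%), Krt18 at 7.36-fold and Emb at 1.84-fold, and 4 stood lower (12.9%), as computed from the authors' deposited table. T and Krt8 had no entry for cluster 7, so they are outside this count. Crabp1 was 6.92-fold lower in cluster 3 than in cluster 7, with 11.3% of cells against 81.2%, and H19 4.97-fold lower, with 16.6% against 76.7%, as computed from the authors' deposited table. Against cluster 0, 6 of 30 genes stood higher in cluster 3 (20%) and 3 lower (10%). Krt8 was 10.9-fold higher in cluster 3 than in cluster 0, with 93.0% of cells against 25.2%, and Igf2 was 5.38-fold lower, with 19% against 77.9%, as computed from the authors' deposited table. Id2 and Vim, low in cluster 3, were low in clusters 0 and 7 as well, and their levels in the 3 clusters lay within 0.5 of each other on the natural log scale.

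Clusters 6 and 4 differed from cluster 3 in keratins and in Ccnd2. Of 19 genes listed for both clusters 3 and 6, 5 stood higher in cluster 3 (26.3%) and 7 lower (36.8%). Of 21 listed for both clusters 3 and 4, 8 stood higher in cluster 3 (38.1%) and 5 lower (23.8%). Krt8 was 15.4-fold higher in cluster 3 than in cluster 6 and 18.1-fold higher than in cluster 4, as computed from the authors' deposited table. Ccnd2 was 5.28-fold lower in cluster 3 than in cluster 6 and 5.81-fold lower than in cluster 4, as computed from the authors' deposited table. Foxa2, the shared midline gene of clusters 3 and 6, was found in 44.9% of cells in cluster 3 against 27.8% in cluster 6 and differed by less than 0.5 on the natural log scale.

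The knocked-out gene cannot be checked in cluster 3. Smarca2, which encodes BRM, and Smarca4, which encodes BRG1, were listed for none of the 15 clusters. The 3 genes of the BAF complex list that the table holds, Actb, Smarcb1 and Smarcc1, were not listed for cluster 3.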

How the data were processed

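Per the submitters' processing notes, the 10x droplet libraries went through Cell Ranger and Seurat with mm9 as the build. No tool version, cell filter, doublet step or clustering setting is given in the sources used here, nor which libraries were clustered. The deposited file is the authors' marker table, with 1 entry for each gene and cluster against all other cells. The deposited fold changes are logs per the file headers, which name no base, and were read as natural log values. The base was checked on 4 genes listed for nearly all cells: natural logs left the remaining clusters inside the table's threshold for 4 of 4 and base 2 for 0. The deposited shares of cells are fractions, printed as percent. The deposited p-values compare cells, which are not replicates, and served only as a filter in an alternative. No library can be told apart, so depth and counting intervals are unknown.

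Cluster sizes came from a least-squares solution over 407 genes listed for 2 or more clusters, with a residual SD of 0.0228 percentage points. Sizes gave the share of detecting cells in cluster 3, the level in a cluster over the mean of all cells, shares in clusters that do not list a gene, and values without cluster 2. Levels of 2 clusters counted as different at 0.5 or more in natural log units. Members of 24 gene lists were counted. Members and lists were chosen with earlier results of these data known.

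Genes were named by a rule: the 20 highest and 12 lowest of cluster 3 without predicted genes, list members, the 10 largest differences in share, genes higher in no other cluster, the 10 highest shares of detecting cells and the 3 genes just inside each threshold. Others (Mns1, 1700009P17Rik, Slc16a1, Ezr, Ccnd2, Ccnd3, Mfap2, Igfbp4, Serpinh1, S100a10 and genes named for other clusters or as changing without cluster 2) were chosen after their values were seen. All 99 names matched RefSeq, 95 as current symbols. The steps were tested on simulated data. Python 3.11.15, numpy 2.4.6, pandas 2.3.3 and matplotlib 3.10.9 were used. Alternatives were stricter thresholds, other sizes, another order of genes, other bounds and cluster 2 taken out. A few genes are not reported here.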

Additional observations from a re-analysis of the deposited data

How the results depend on the processing

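No paired analysis was possible because the table names no library and each group has 1. With a natural log fold change of 1 or more required, cluster 3 had 15 higher and 13 lower genes, 5 epithelial, 2 streak and 0 mesenchymal list members. At that threshold 11 genes were higher in no other cluster, of which 3 (T, Trh and Cfc1) are among the 20 of the report, and the other 8 enter because their listings in other clusters lie under 1. With a larger share of cells of at least 50%, 31 higher and 14 lower genes and 3 streak members were left. An adjusted p-value under 1e-50 and leaving out predicted genes kept both counts within 1.5 times. The size of cluster 3 was 10.4% with each set of genes, and no fold changed sign without cluster 2.

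Counts against other clusters depend on the bound. At 0.25, the genes higher and lower in cluster 3 were 14 and 3 against cluster 8, 8 higher against cluster 7, 11 and 5 against cluster 0, 8 lower against cluster 4 and 9 lower against cluster 14. At a bound of 1 they were 1 and 0 against cluster 8, 3 and 3 against cluster 14, 1 and 2 against cluster 7, 3 higher against cluster 0, 4 lower against cluster 6 and 3 lower against cluster 4. The cause was not tested, beyond that a stricter bound keeps fewer genes. Unknown depth limits what absence of a gene from the table can show.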
